A study of Mus musculus with 6 samples.

Results

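The comparison described here is that of wild type CD4 T helper (Th) cells cultured toward the Th1 fate with wild type cells cultured toward the Th2 fate. It was made by taking the arrays titled for these cultures, 2 of the 6 arrays of the series, 1 for each culture. Naive CD4 T cells, sorted as CD44 low and CD62L high, came from the spleen of C57BL/6 mice whose age is not given. Activation lasted 2 days, on plates coated with an anti-TCRβ antibody at 10 µg/ml, with anti-CD28 at 1 µg/ml and IL-2 at 15 ng/ml, and 3 more days followed without either stimulating antibody. Th1 cultures contained 1 ng/ml IL-12 and an antibody that blocks IL-4. Th2 cultures contained 10 ng/ml IL-4 and an antibody that blocks interferon gamma. The wild type unpolarized culture contained both blocking antibodies and neither polarizing cytokine. Cytokine and antibody therefore changed together between Th1 and Th2, and their parts cannot be told apart. Ezh2 KO cells, grown in the same 3 conditions, served as a second Th1 and Th2 pair that shares no array with the wild type pair. The labels do not say how or where in the gene Ezh2 was deleted. Its probe set, Ezh2 being the methyltransferase of PRC2, read 4971, 4876 and 4946 in the Ezh2 KO unpolarized, Th1 and Th2 arrays against 7002, 6553 and 7677 in wild type. The 2 sets of 3 do not overlap, but whether the probes lie in the deleted part is not known, so this does not check the labels. RNA was taken at day 5, and the labels name no renewed stimulation.

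Naive CD4 T cells choose an effector fate according to the cytokines present while they are activated. IL-12 signals through the transcription factor STAT4 and favours the factor T-bet and the cytokine interferon gamma, the hallmarks of Th1 cells, which act against intracellular microbes. IL-4 signals through STAT6 and favours the factor GATA3 and the cytokines IL-4, IL-5 and IL-13, the hallmarks of Th2 cells, which act in allergy and against worms. Each fate represses the other. Interferons act through STAT factors on promoters that hold an interferon-stimulated response element (ISRE), and thereby induce antiviral proteins and large GTPases.

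Because the genes highest in Th1 included many interferon targets, the 250 bases upstream of the start of 6 of them are shown, together with those of Il4. They are from RefSeq (GRCm38.p6), written 5′ to 3′ on the strand of the gene. Capitals mark the ISRE letters (GAAA, any 2 bases, then GAAA, on either strand) in the first 6. In Il4 they mark TTC and GAA with 4 bases between them, the spacing preferred by STAT6. Overlapping matches run together. Ifit3 encodes an antiviral interferon-induced protein, Rsad2 the antiviral enzyme viperin, and Oas1a an oligoadenylate synthetase. Gbp2 and Gbp3 encode guanylate-binding proteins and Irgm1 an immunity-related GTPase.
Ifit3: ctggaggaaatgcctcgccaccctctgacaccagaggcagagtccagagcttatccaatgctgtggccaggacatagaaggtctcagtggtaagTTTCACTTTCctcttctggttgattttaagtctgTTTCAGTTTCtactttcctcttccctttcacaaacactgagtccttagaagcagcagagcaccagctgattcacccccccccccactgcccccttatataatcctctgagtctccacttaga
Rsad2: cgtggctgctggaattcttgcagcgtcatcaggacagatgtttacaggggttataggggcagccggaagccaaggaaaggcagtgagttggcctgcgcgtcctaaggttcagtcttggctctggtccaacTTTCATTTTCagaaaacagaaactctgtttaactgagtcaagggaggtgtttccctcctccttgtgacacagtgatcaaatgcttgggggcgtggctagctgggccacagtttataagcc
Oas1a: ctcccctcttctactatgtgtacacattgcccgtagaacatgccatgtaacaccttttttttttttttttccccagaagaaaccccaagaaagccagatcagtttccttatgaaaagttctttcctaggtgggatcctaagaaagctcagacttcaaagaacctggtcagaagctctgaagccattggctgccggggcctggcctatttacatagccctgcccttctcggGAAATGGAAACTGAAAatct
Gbp2: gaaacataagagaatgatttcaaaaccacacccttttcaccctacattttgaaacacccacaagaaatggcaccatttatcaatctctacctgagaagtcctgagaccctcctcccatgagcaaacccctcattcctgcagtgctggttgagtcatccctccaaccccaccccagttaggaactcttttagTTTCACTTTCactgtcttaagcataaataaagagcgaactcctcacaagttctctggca
Gbp3: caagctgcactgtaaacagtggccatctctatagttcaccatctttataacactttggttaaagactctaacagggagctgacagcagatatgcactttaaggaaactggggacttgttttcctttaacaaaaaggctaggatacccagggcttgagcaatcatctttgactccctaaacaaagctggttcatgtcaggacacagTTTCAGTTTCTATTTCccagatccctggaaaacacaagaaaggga
Irgm1: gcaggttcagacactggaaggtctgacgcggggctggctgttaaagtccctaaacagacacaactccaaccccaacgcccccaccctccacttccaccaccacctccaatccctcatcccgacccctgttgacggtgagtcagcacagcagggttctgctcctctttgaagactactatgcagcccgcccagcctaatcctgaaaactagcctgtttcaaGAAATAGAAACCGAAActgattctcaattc
Il4: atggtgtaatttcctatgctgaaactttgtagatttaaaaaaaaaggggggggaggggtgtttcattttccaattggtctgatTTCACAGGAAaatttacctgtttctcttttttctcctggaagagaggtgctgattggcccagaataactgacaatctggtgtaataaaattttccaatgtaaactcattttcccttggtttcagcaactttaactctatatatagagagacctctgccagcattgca

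These windows lie at chr19:34583279-34583528 on the plus strand for Ifit3, chr12:26456453-26456702 on the minus strand for Rsad2 and chr5:120907526-120907775 on the minus strand for Oas1a. Those of Gbp2 and Gbp3 lie on the plus strand at chr3:142620413-142620662 and chr3:142559794-142560043, and those of Irgm1 and Il4 on the minus strand at chr11:48871421-48871670 and chr11:53618666-53618915. The table held 2 windows for Gbp3, of which the first is shown, and 2 for Il4, of which the shown one was taken because it holds the STAT6 type letters. The nearest ISRE match began 14 bases before the start in Oas1a, 24 in Irgm1, 39 in Gbp3 and 59 in Gbp2, against 120 in Rsad2 and 122 in Ifit3. The Il4 window also held the ISRE letters once, 190 bases before the start, and Oas1a held the STAT6 type letters at 182 and 27 bases. A match is a description of the letters and not of a site in use. Every interferon target shown holds the ISRE letters, so these windows do not represent the interferon lists described below. Of the type I interferon genes with a window, 8 of 18 (44.4%) held the letters. Of the interferon gamma genes with a window, 9 of 23 (39.1%) did. No window was found for Usp18, Mx1, Rtp4 and Iigp1.

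Affymetrix 3' expression arrays gave 1 intensity per probe set. Every array had the same mean of 500 after trimming 2% at each end, and the medians of the Th1 and Th2 arrays were 64.12 and 63.39. The brightest probe set stood for each gene, values were raised to a floor of 11.33, and 11572 of 18193 genes reached the median of all values (64.43) on at least 1 array. That median is used below as the low-signal limit. With 1 array per culture the wild type difference has no replicate and no test. The number of arrays limits its precision, and nothing in the labels says whether the cultures came from separate mice. Differences are on the log2 scale, Th1 minus Th2, so positive values are higher in Th1.

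Most genes differed little between the wild type Th1 and Th2 arrays. The median difference was -0.002, the median absolute difference 0.18, and 9923 of 11572 genes (85.8%) were within 1.5-fold. At 2-fold or more, 438 genes (3.78%) were higher in Th1 and 335 (2.89%) higher in Th2. At 4-fold or more these counts were 93 and 80, and at 8-fold or more 4 and 3.

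Most of the 2-fold differences were in dim genes. Of the 773 genes, 585 (75.7%) read under 128 on the brighter of the 2 arrays, and 157 had the dimmer array at the floor. Among genes between 64.43 and 128, 23.9% differed by 2-fold or more, against 1.88% between 512 and 1024 and 0.867% above 1024. The residual spread of an additive model of culture and genotype over all 6 arrays fell in the same order, from a median SD of 0.41 to 0.12 and 0.09. The Ezh2 KO pair gave a second reading. Of the 350 2-fold genes between 64.43 and 128, 183 (52.3%) had the same sign there, close to the 51.6% of all genes of that brightness. Between 128 and 256 it was 60 of 81 (74.1%), against 52.1% of all genes of that brightness. Between 256 and 512 it was 23 of 32 (71.9%), against 56.8%. Between 512 and 1024 it was 27 of 37 (73.0%), against 58.7% of all genes of that brightness. Above 1024 it was 23 of 38 (60.5%), against 61.6% of all genes of that brightness.

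**Figure D1:**
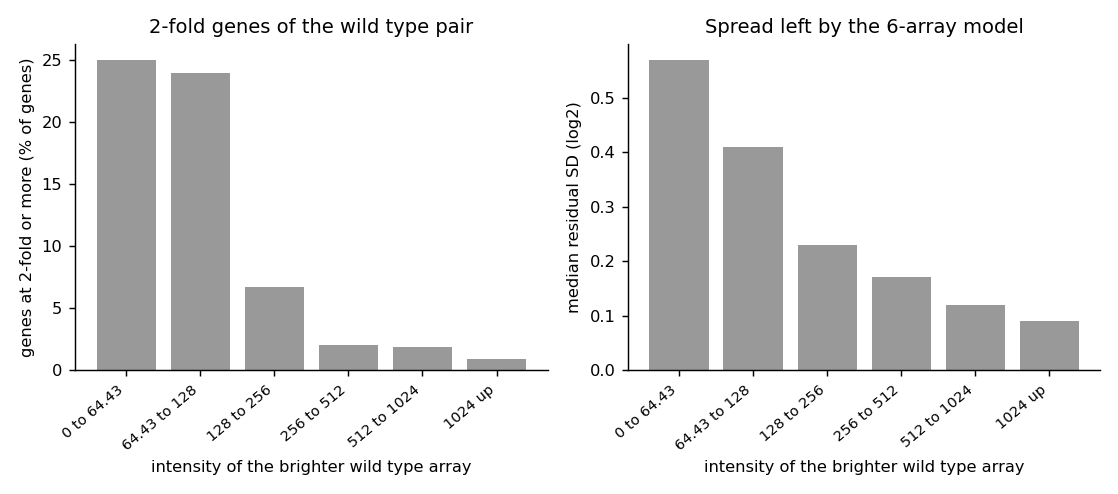
Left, the percentage of genes at 2-fold or more between the wild type Th1 and Th2 arrays, and right, the median residual SD (log2) of the 6-array model, each by the intensity of the brighter wild type array. Both are highest for dim genes (25.0% and 0.57 under 64.43) and lowest above 1024 (0.867% and 0.09).

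A limit of 500 was chosen after the values were seen. Because the share at 2-fold and the residual spread fell with brightness, genes with the brighter array at 500 or more are given separately. Of 6420 such genes, 51 (0.794%) were 2-fold or more higher in Th1 and 25 (0.389%) higher in Th2. Of these 76 genes, 34 had another probe set above the low-signal limit, and in 32 (94.1%) all others pointed the same way, against 61 of 81 (75.3%) among all 2-fold genes. With the mean over every probe set of a gene, dim ones included, 26 of 131 named 2-fold genes no longer reached 2-fold, and the value is given beside each such gene described below.

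**Figure D2:**
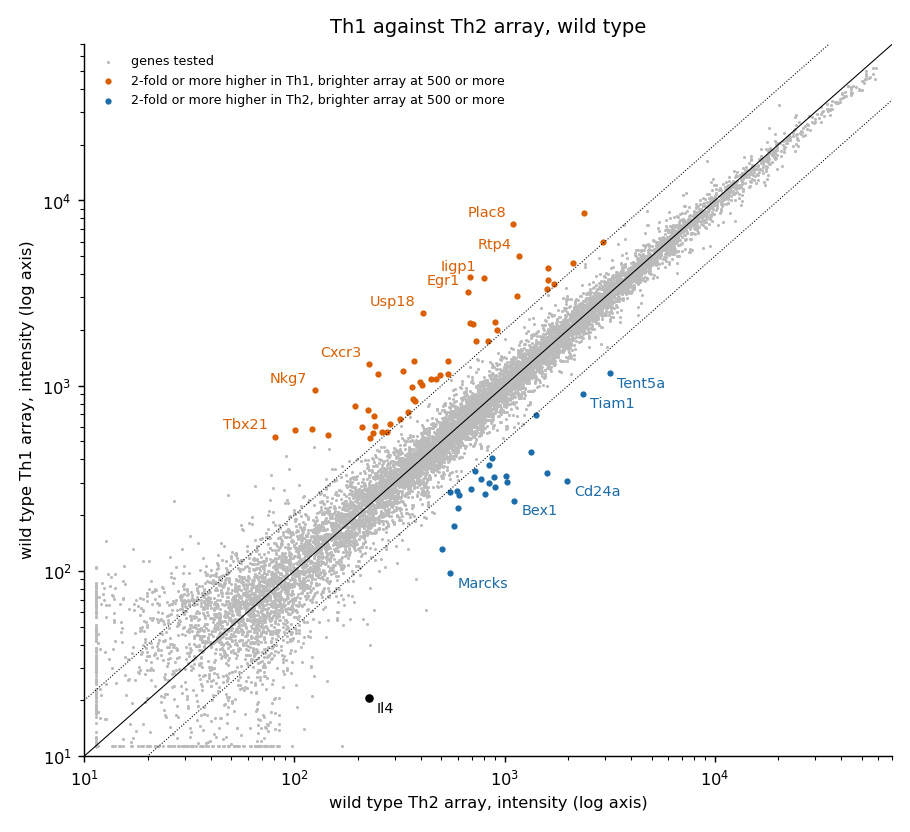
Intensity on the wild type Th1 array (vertical, log axis) against the wild type Th2 array (horizontal, log axis), 1 point per gene tested, with the diagonal and the 2-fold limits drawn. The 51 orange and 25 blue genes are 2-fold or more apart with the brighter array at 500 or more, and the cloud is widest under an intensity of about 128.

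Th1 regulators and receptors were higher in Th1, in part from low levels. Tbx21, which encodes T-bet, read 530.4 in Th1 against 80.8 in Th2 and 90.0 in the unpolarized culture. It was thus 6.56-fold higher in Th1 than in Th2, with Th2 and unpolarized close together. Cxcr3, the chemokine receptor of Th1 cells, read 1313 in Th1, 227 in Th2 and 219 in unpolarized cells, a 5.79-fold difference between Th1 and Th2. In the Ezh2 KO pair both pointed the same way, with 643 against 336 for Tbx21 and 2382 against 1215 for Cxcr3. Il12rb2, the inducible chain of the IL-12 receptor, read 61.6 in Th1, 19.1 in Th2 and 23.5 in unpolarized cells, all under the low-signal limit. Il18r1, a receptor chain for IL-18, was 1.74-fold higher in Th1 (2288 against 1311), and its partner Il18rap 1.31-fold (730.5 against 559). Stat4, which carries the IL-12 signal, read 1763 and 1658, a difference of 0.09.

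The cytokine of the Th1 fate was barely detected. Ifng read 25.8 in Th1, 4.03 in Th2 and 6.07 in unpolarized cells, so even the Th1 reading was under the low-signal limit and the difference of at least 2.28-fold is between dim values. In Ezh2 KO Th1 and Th2 cells it read 767 and 608. The chemokine Ccl5, made by effector T cells, was 2.28-fold higher in Th1 (524 against 229.9). Fasl, the death ligand, was 2.22-fold higher (831 against 375), and Lif, a cytokine of the IL-6 family, 2.32-fold (3714 against 1601), or by 0.83 on the log2 scale over all probe sets. Ccl3 and Ccl1, both chemokines, were higher in Th1 by at least 2.92-fold and at least 3.81-fold, again with both readings under the low-signal limit.

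Of 25 tested members of the Th1 signature list, 8 were 2-fold or more higher in Th1 and 0 higher in Th2. Of all genes 3.78% and 2.89% were. The list had a median of 0.51 against -0.002 for all genes. These 8 were Tbx21, Cxcr3, Il12rb2, Ifng, Ccl5, Ccl3, Fasl and Nkg7. Ifng, Il12rb2 and Ccl3 read under the low-signal limit in both cultures. In the Ezh2 KO pair 1 member was 2-fold or more higher in Th1 and 3 were higher in Th2, with a median of 0.25, where 2.7% and 3.38% of all genes were. The list holds 28 genes, of which 26 had a probe set with 1 symbol and 25 passed the filter on low values.

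Some genes of cytotoxic cells were higher in Th1. Nkg7, a granule protein of cytotoxic cells, read 944 in Th1, 125 in Th2 and 185 in unpolarized cells, 7.56-fold higher in Th1 than in Th2. Ctsw, the protease cathepsin W, was 3.65-fold higher (1204 against 329.6), and Slamf7, an activating receptor, 2.85-fold (596 against 209). The NK receptor chains Klrd1 (142 against 44.6) and Klrk1 (106 against 38.1) were 3.18-fold and 2.79-fold higher, with the Th2 reading of each under the low-signal limit. Klrd1 was higher still in unpolarized cells (174). Gzmb, granzyme B, was bright in both (32780 and 20194), 1.62-fold higher in Th1. Gzmc, another granzyme, went the other way, 1.61-fold higher in Th2 (1316 against 818). Prf1, perforin, was level (78.2 in Th1 and 78.1 in Th2), as was Gzma under the low-signal limit (51.7 and 51.0). Of 22 tested genes of this list 6 were 2-fold or more higher in Th1 and 0 in Th2 (median 0.45, with 16 above 0). Of all genes 3.78% and 2.89% were. With a floor at the 40th percentile the median was 0.0, and the count stayed at 6. In the Ezh2 KO pair the list had 1 member at 2-fold or more in Th1 and 2 in Th2, with a median of -0.31. There 2.7% and 3.38% of all genes were. The 4 CD8 T cell markers, all tested, had a median of 0.26 in wild type, 3 of them on the Th1 side, with 0 at 2-fold and summed intensities of 2526 in Th1 and 2103 in Th2. Cd8a read 152 in Th1 and 131 in Th2, and Cd8b1 263 and 277. Their part in the cytotoxic genes was not tested.

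**Figure D3:**
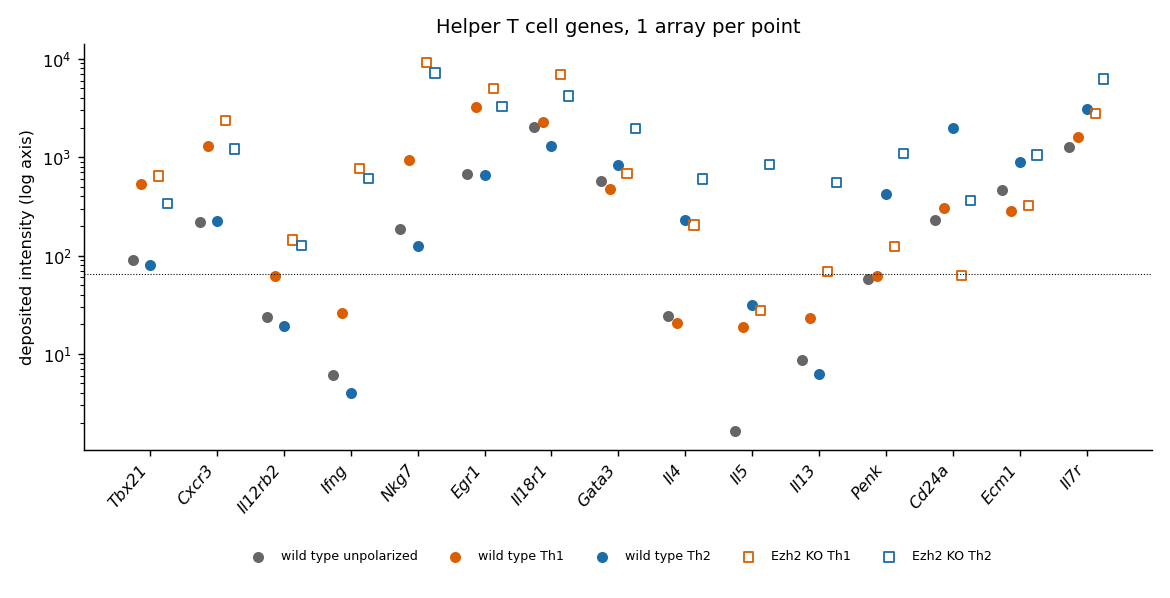
Deposited intensity (log axis) of 15 helper T cell genes on the 3 wild type arrays (filled circles) and the Ezh2 KO Th1 and Th2 arrays (open squares), 1 point per array, with the low-signal limit of 64.43 dotted. Tbx21, Cxcr3 and Nkg7 stand high in wild type Th1 alone among the wild type arrays, and Il4, Penk and Cd24a in wild type Th2.

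Interferon response genes were higher in Th1. They made up 24 of the 438 genes at 2-fold or more in Th1 (5.48%) over both interferon lists, and 18 of the 51 bright ones. For comparison, both lists together held 56 of all 11572 genes tested and 44 of the 6420 bright genes. Of 27 tested type I interferon response genes, 17 were 2-fold or more higher in Th1 and 0 higher in Th2, where 3.78% of all genes were higher in Th1. All 27 were on the Th1 side of 0, from 0.08 for Ifit2 to 3.15 for Oasl2, with a median of 1.21. Under the 8 alternative settings the median of the list was 1.19 to 1.21, and 14 to 17 members were at 2-fold or more. The list shares no gene with the interferon gamma list described below, although interferon gamma can induce genes of either.

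Usp18, which restrains interferon signalling, read 2468 in Th1, 409 in Th2 and 686 in unpolarized cells. Mx1, an antiviral GTPase, read 575, 101 and 171 in the same order, and Rsad2 580.4, 122 and 221. Th1 cells were the highest of the 3 wild type cultures for each, Th2 cells the lowest, and the Th1 to Th2 difference was 6.03-fold, 5.70-fold and 4.76-fold. Rtp4, another interferon-induced gene, was 4.31-fold higher in Th1 (5015 against 1164). Ifit3 was 4.24-fold higher (329.5 against 77.8) and Oas1a 3.67-fold (1359 against 369.9). The factors Irf7 and Irf9, which carry interferon signals to promoters, were 2.31-fold (844 against 366) and 2.11-fold higher (1746 against 829). Across the list the median difference from unpolarized cells was 0.83 for Th1 and -0.36 for Th2, both against the same unpolarized array.

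In Ezh2 KO cells the same genes were bright in both cultures and close together. Usp18 read 4993 in Th1 and 4613 in Th2, Mx1 2246 and 2174, and Rsad2 2944 and 2868. Each Ezh2 KO reading was above that of wild type Th1, and the Th1 to Th2 differences were 0.11, 0.05 and 0.04. Over the 27 genes 0 were 2-fold or more apart in the Ezh2 KO pair, with a median of -0.03 and 12 above 0. Of all genes 2.7% were higher in Ezh2 KO Th1 and 3.38% in Ezh2 KO Th2. Whether the difference itself differs between genotypes was not tested, since each genotype has 1 array per culture.

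**Figure D4:**
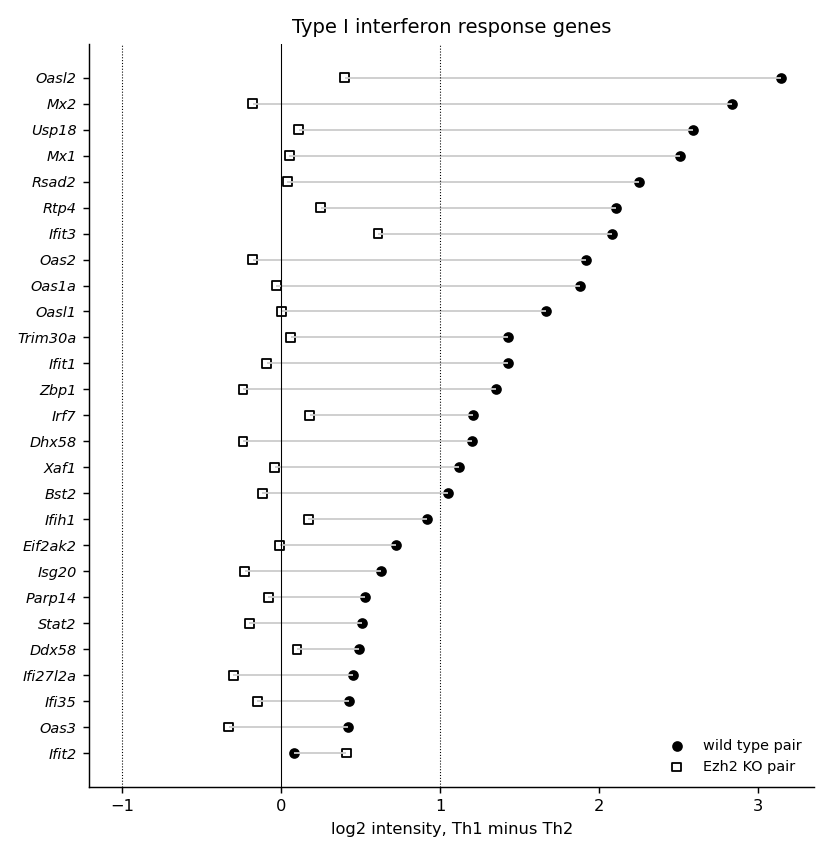
Log2 intensity difference, Th1 minus Th2, of the 27 type I interferon response genes tested, in wild type (filled circles) and Ezh2 KO (open squares), 1 pair of arrays each. The wild type values lie from 0.08 to 3.15 with 17 at 1 or more, and the Ezh2 KO values lie near 0, all within 1 of it.

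Most genes of the interferon gamma list were on the Th1 side, although most differed by less than 2-fold. The GTPase genes were higher in Th1: Iigp1 4.80-fold (3828 against 798), Gbp3 4.62-fold (1153 against 249.8), Gbp6 3.19-fold (2170 against 681), Gbp2 3.04-fold (2152 against 709) and Irgm1 2.46-fold (2199 against 896). Unpolarized cells read 949.9 for Iigp1, 399.7 for Gbp3 and 892 for Gbp2, nearer to Th2 than to Th1 for each. They shared 1 blocking antibody with Th2 cells and the other with Th1 cells, and had neither polarizing cytokine. The part of each in these values was not tested. The factor Irf1 was 1.57-fold higher in Th1 (2968 against 1894). The receptor chains went opposite ways, with Ifngr1 1.82-fold higher in Th1 (4396 against 2412) and Ifngr2 2.09-fold higher in Th2 (721 against 345), or at -0.64 over all probe sets. Ifngr2 was lower in Th1 than in unpolarized cells (1043) as well. In the Ezh2 KO pair Ifngr2 again was lower in Th1 (144 against 264). Of 29 tested genes 7 were 2-fold or more higher in Th1 and 1 in Th2 (median 0.29, with 24 above 0). Of all genes 3.78% and 2.89% were. In the Ezh2 KO pair 0 of the 29 were, where 2.7% and 3.38% of all genes were, with a list median of -0.09.

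The ISRE letters were common upstream of the bright Th1 genes. Of the 51 bright genes at 2-fold or more in Th1, 38 had a window in the RefSeq table and 13 of these (34.2%) held the ISRE letters within the 250 bases before the first listed start, on either strand. The share was 2.72% of 5302 bright genes with a window, 3.04% of all 27025 windows and 0 of 19 for the bright genes higher in Th2. The GAS letters TTCNNNGAA, bound by STAT dimers, were in 5 of 38 (13.2%) of the Th1 genes and 4 of 19 (21.1%) of the Th2 genes, against 5.83% of bright genes. The STAT6 type letters were in 3 of 38 (7.89%) and 3 of 19 (15.8%), against 4.38%. The T-box motif TCACACC was in 3 of 38 (7.89%) and 0 of 19, against 2.57%, and the factor motif AGATAA, bound by GATA factors, in 2 of 38 (5.26%) and 0 of 19, against 5.19%. A GAS match can overlap an ISRE match, and windows were found for 9405 of 11572 genes tested. The 18 bright Th1 genes that belong to either interferon list are among those counted, so the ISRE share is not separate support for them.

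Other genes were higher in Th1. Some of them, such as Ifitm3 and Ms4a4c, are in neither interferon list, which does not place them outside the interferon response. Plac8, which lies in the Th2 signature list used here, read 7453 in Th1, 1100 in Th2 and 1879 in unpolarized cells, 6.77-fold higher in Th1. In Ezh2 KO it pointed the other way (22998 in Th1 and 28341 in Th2). The immediate early factor Egr1 read 3215 in Th1, against 666 in Th2 and 670 in unpolarized cells, 4.82-fold higher in Th1 than in Th2. In Ezh2 KO it read 5040 and 3277. Ms4a4c was 5.70-fold higher (3881 against 681), the antiviral membrane protein gene Ifitm3 3.60-fold (8571 against 2378, with 19277 and 20617 in Ezh2 KO), and the kinase gene Dapk2 2.87-fold (689 against 240.2). Cd69, an early activation marker, was 2.08-fold higher (3322 against 1596), and Il2rb, the beta chain of the IL-2 receptor, 1.77-fold (2633 against 1487). St3gal6, a sialyltransferase that helps build selectin ligands, was 2.98-fold higher (168 against 56.4).

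Il4 had the second lowest difference among the 40 genes named by size. It read 227.5 in Th2, 20.5 in Th1 and 24.1 in unpolarized cells, 11.1-fold higher in Th2 with the other 2 readings under the low-signal limit. In Ezh2 KO it read 601 in Th2 and 204 in Th1. Of the other Th2 cytokines, Il5 read 31.2 in Th2 and 18.7 in Th1, Il13 6.26 and 23.1, and Il10 45.2 and 34.7. All of these were under the low-signal limit, so wild type Th2 cells had Il4 above it without the neighbours Il5 and Il13. In Ezh2 KO Th2 cells Il5, Il13 and Il10 read 842, 555 and 3891. Il24, a cytokine known from Th2 cells, was 3.32-fold higher in wild type Th2 (183 against 55.3).

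Gata3 was higher in Th2 by less than 2-fold. It read 830.4 in Th2, 475 in Th1 and 575 in unpolarized cells, a 1.75-fold difference between Th2 and Th1, and 1962 against 686 in the Ezh2 KO pair. Maf, a factor that acts on Il4, read 92.2 and 73.1. Il4ra, the receptor chain for IL-4, was 1.71-fold higher in Th2 (2863 against 1676), although by 0.27 on the log2 scale when all its probe sets were averaged. Stat6 read 1708 and 1434, and Xbp1, a factor of the secretory pathway, 24172 and 18494. Epas1, a hypoxia factor found in Th2 cells, was 2.13-fold higher in Th2 (414 against 194), or at -0.81 over all probe sets. Pparg, a nuclear receptor of Th2 cells, was 2.68-fold higher (64.9 against 24.2), with the Th2 reading just above the low-signal limit.

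Several genes higher in Th2 lie outside the cytokine genes. Cd24a, a surface glycoprotein, read 1976 in Th2, 305.5 in Th1 and 232 in unpolarized cells, 6.47-fold higher in Th2 than in Th1. Its Ezh2 KO readings were 364 in Th2 and 62.1 in Th1, and its 2 other probe sets with signal differed by -2.29 and -2.49 in wild type. Penk, which encodes the opioid precursor proenkephalin, read 421, 61.2 and 57.3 in the same wild type order, 6.88-fold higher in Th2, and 1096 against 125 in Ezh2 KO. Marcks, a substrate of protein kinase C, was 5.65-fold higher (549 against 97.2), and its 5 other probe sets with signal pointed the same way. Ecm1, an extracellular matrix protein of Th2 cells, was 3.16-fold higher (902 against 286), and Tiam1, an activator of the GTPase Rac, 2.62-fold (2362 against 902), or at -0.97 over all probe sets. Tent5a, a poly(A) polymerase, was 2.71-fold higher (3159 against 1164). Myo6, a myosin, was 3.40-fold higher (1028 against 303), and Il7r, the receptor chain for IL-7, 1.91-fold (3070 against 1611).

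Other bright genes were lowest in Th1, with the unpolarized culture above it. Cpe, a peptide-processing enzyme, read 338 in Th1, 1591 in Th2 and 793 in unpolarized cells, and its difference of -2.23 was -0.98 over all probe sets. Nrp1, the receptor neuropilin, read 437, 1336 and 918 in that order, and Acsl6, a fatty acid CoA ligase, 326, 1016 and 1146. In the Ezh2 KO pair Acsl6 pointed the other way (197 in Th1 and 122 in Th2). Fas, the death receptor, read 409, 868 and 815, and Id1, an inhibitor of basic helix-loop-helix factors, 131, 501 and 313. In the Ezh2 KO pair Nrp1, Fas and Id1 were nearly level, with differences of -0.13, -0.05 and -0.2, while that of Cpe was -1.3. Of the 25 bright genes higher in Th2, unpolarized cells were nearer to Th2 in 13. Of the 51 higher in Th1 they were nearer to Th2 in 38. The median Th1 minus unpolarized difference of the 51 was 1.08, and their Th2 minus unpolarized difference -0.44. For the 25 these medians were -0.81 and 0.76, all against 1 shared unpolarized array.

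Of 22 tested members of the Th2 signature list, 7 were 2-fold or more higher in Th2 and 2 higher in Th1, with a median of -0.60, beside 2.89% of all genes higher in Th2. The 7 were Il4, Penk, Il24, Ecm1, Pparg, Epas1 and Il17rb. The 2 were Plac8 and Il13, the latter between 23.1 and a reading under the floor. In the Ezh2 KO pair 11 members were 2-fold or more higher in Th2 and 0 higher in Th1, with a median of -1.18. There 3.38% and 2.7% of all genes were.

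Some receptor and lipid mediator genes differed in either direction. The chemokine receptor Ccr2 was 2.57-fold higher in Th2 (188 against 73.4) and pointed the same way in Ezh2 KO (3889 against 1835). Its other probe set with signal pointed the other way in wild type (65.8 in Th2 and 82.7 in Th1), and over all probe sets the difference was -0.19. The leukotriene receptors Ltb4r1 (348 against 131) and Cysltr2 (97.4 against 46.8) and the leukotriene synthesis gene Alox5ap (254 against 99.6) were 2.65-fold, 2.08-fold and 2.54-fold higher in Th2. The prostaglandin receptor Ptger3 (184 against 78.8) and the nucleotide sugar receptor P2ry14 (233 against 89.9) were 2.33-fold and 2.59-fold higher in Th1, Ptger3 by 0.36 on the log2 scale over all probe sets. The list of 14 tested lipid mediator genes had 2 members higher in Th1 and 4 in Th2 at 2-fold or more, where 3.78% and 2.89% of all genes were. Of 26 cytokine receptor genes, 1 was higher in Th1 (Il12rb2), near the share of all genes, with a list median of -0.02. In Th2 3 were higher (Il17rb, Ifngr2 and Csf2rb, the last under the low-signal limit and at -0.48 over all probe sets). Of 55 T cell transcription factor genes, 2 were higher in Th1 (Tbx21 and Egr1) and 2 in Th2 (Epas1 and Pparg), shares near those of all genes.

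In several other lists no tested gene differed by 2-fold or more, where 6.68% of all genes did in either direction. Of 25 JAK, STAT and SOCS genes, 26 proliferation genes, 15 glycolysis genes, 17 sterol synthesis genes, 10 inhibitory receptors, 7 follicular helper genes and 4 Th17 genes tested, 0 were 2-fold or more apart. For the shorter of these lists a count of 0 is near that share. The share also falls with brightness, to 1.88% of genes between 512 and 1024 and 0.867% above 1024. Most proliferation, glycolysis and sterol synthesis genes tested read above 1024, so their counts of 0 are near the share of genes that bright. The Th17 gene Ahr, an aryl hydrocarbon receptor, was 1.75-fold higher in Th2 under the low-signal limit (58.2 against 33.3). Likewise 0 of 19 PRC2 and trithorax genes reached 2-fold. Of 12 housekeeping genes 11 were higher in Th2, by at most 0.34 (Actb), with a median of -0.12 that turned to 0.01 after quantile normalization. Sterol synthesis genes were all on the Th2 side, from -0.07 to -0.33, with a median of -0.15, and -0.14 after quantile normalization.

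Both arrays carried the markers of CD4 T cells. Cd4 read 477 in Th1 and 548 in Th2, and 0 of 10 CD4 T cell markers were 2-fold apart. Of 8 listed B cell markers 7 had a named probe set and 5 were tested, 3 of them 2-fold or more higher in Th2: Cd79b (159.8 against 60.3), Blk (52.2 against 20.4) and Ms4a1 (63.5 against 30.3), the last 2 under the low-signal limit and Ms4a1 at -0.24 over all probe sets. Their summed intensity, mostly Ighm, was 7437 in Th1 and 8765 in Th2. Of all 15 myeloid markers 7 were under the low-signal limit in both cultures. Among the 9 tested, Adgre1 was 5.74-fold higher in Th2 (229.6 against 40.02). The 15 had summed intensities of 4465 in Th1 and 4812 in Th2, mostly from Cst3 (2137 and 2466) and H2-Ab1 (1735 and 1511). All 7 NK and NKT markers with a probe set were under that limit in both, as were 7 of 9 mast cell and basophil markers. The mast cell marker Kit was 2.72-fold higher in Th2 (100.3 against 36.9), by 0.03 on the log2 scale over all probe sets. All 5 erythroid markers with a probe set were under the low-signal limit in both cultures. Whether other cells added to the values above was not tested. In bulk RNA fewer cells of a type and less RNA per cell cannot be told apart.

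The 2 pairs together allow the test that the design gives. With limma, fitted to all 6 arrays with genotype as a block, 0 of 11572 genes differed between Th1 and Th2 at a Benjamini-Hochberg adjusted p under 0.05 (0.0% called). The lowest adjusted p was 0.255, and 878 genes had an unadjusted p under 0.05. The fit has 2 residual degrees of freedom, so its p-values measure only the spread between arrays, which contains any difference of the Th1 to Th2 effect between genotypes. The limma estimate over both genotypes was 1.83 ± 0.61 (SE) for Tbx21, 1.35 ± 0.69 for Usp18 and -2.51 ± 0.58 for Il4, with adjusted p of 0.657, 0.696 and 0.622. Their wild type differences (2.71, 2.59 and -3.47) were larger than those of Ezh2 KO (0.94, 0.11 and -1.56).

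When the variance prior of limma was allowed to follow intensity, 16 genes passed (0.138% called), 3 higher in Th1 and 13 in Th2. The 3 were Il18r1, the transglutaminase Tgm2 and Zcchc2. The 13 were Penk, Cd24a, Ecm1, Il7r, Tiam1, Tent5a, Myo6, Mgll, Prxl2a, Armcx4, Gm2a, Prdx4 and S100a6. In wild type Prxl2a turned from -1.02 to 0.15 over all probe sets. For Penk the estimate was -2.96 ± 0.20 under the constant prior, with an adjusted p of 0.405 there and 0.00856 with the trend. For Tent5a it was -1.54 ± 0.12, with adjusted p of 0.405 and 0.00731. For Cd24a it was -2.62 ± 0.27, with adjusted p of 0.507 and 0.0141. Tgm2 read 7344 in Th1 and 3697 in Th2 of wild type, and 5394 and 2891 of Ezh2 KO, with adjusted p of 0.538 and 0.0409. All 16 had the same sign in both pairs, and 8 were 2-fold or more apart in wild type. The fit counts a gap between the 2 pairs as residual spread, so agreement in sign follows largely from passing it. That agreement is not separate support for these genes.

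The Ezh2 KO pair gave a second reading of the bright genes of each side. Of the 51 higher in wild type Th1, 30 (58.8%) had the same sign in Ezh2 KO and 0 reached 2-fold there, with a median of 1.41 in wild type and 0.08 in Ezh2 KO. Of the 25 higher in wild type Th2, 21 (84.0%) had the same sign and 10 reached 2-fold, with medians of -1.48 and -0.62. The genes were chosen at 2-fold or more in wild type, so their wild type medians are past 2-fold by that choice. The medians of the 2 genotypes therefore cannot be compared as sizes of effect. Among all 6420 bright genes the share with the same sign was 60.7%. Of the 18 Th1 genes in either interferon list 9 had the same sign, and of the 33 outside both lists 21. The 33 are not a set without interferon targets: Ifi213, Ifit1bl1, Ncf1, Trim12c and Trim30d among them held the ISRE letters. The counts of 9 and 21 were not tested against each other.

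**Figure D5:**
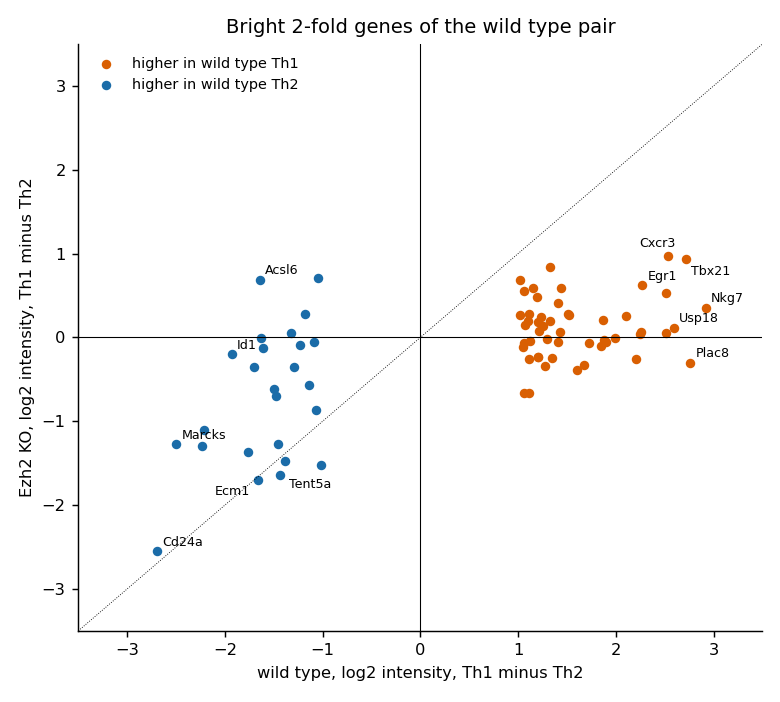
Log2 intensity difference, Th1 minus Th2, in Ezh2 KO (vertical) against wild type (horizontal) for the 51 bright genes 2-fold or more higher in wild type Th1 and the 25 higher in wild type Th2, with the line of equality dotted. The Th1 genes spread around a median of 0.08 on the vertical axis, while Cd24a, Ecm1 and Tent5a of the Th2 genes lie near the dotted line.

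Ranked by size alone, the 20 highest and 20 lowest genes with the brighter array at or above the low-signal limit were mostly dim. In Th1, 15 of the 20 read under 128 and 9 had the Th2 array at the floor. In Th2, 16 of the 20 read under 128 and 15 had the Th1 array at the floor. The highest was Inhbb, an activin subunit, at 146 in Th1 against 12.6 in Th2, with 125 against 13.7 in Ezh2 KO, and its difference of 3.53 was 2.01 over all probe sets. The lowest was Mapk12, a p38 kinase, at least 14.9-fold higher in Th2 (169 against 8.33) and 59.7 against 7.32 in Ezh2 KO, and its difference of -3.90 was -1.95 over all probe sets. Of the 20 Th1 genes 10 had the same sign in Ezh2 KO, and of the 20 Th2 genes 13. Among all genes tested 57.0% did, and 51.6% of those between 64.43 and 128. Besides Inhbb, the Th1 group held Nkg7, Oasl2, Mx2 and Plac8, and besides Mapk12 the Th2 group held Il4, Penk, Cd24a and Col18a1, a collagen gene at 82.5 against 7.195 whose difference of -2.86 was -1.43 over all probe sets.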

How the data were processed

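The deposited tables hold 1 linear intensity for each probe set on each array, and the submitters' processing notes name Affymetrix Expression Console. How probes were summarized is not stated in what was used here. Of 45101 probe sets, 34945 had 1 gene symbol in the platform annotation, 932 several and 9160 none, and 64 are controls. Only those with 1 symbol were used. Values under the 20th percentile were set to it before log2. Each gene was represented by its probe set of highest mean, and was tested where any array reached the median. Scaling to one target can leave intensity-dependent differences between arrays.

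The wild type difference is 1 array against 1 array, so it has no test. Genes were counted at 2-fold or more, and a fold is given as "at least" where the dimmer array was at the floor. limma 3.58.1 in R 4.3.3 was fitted to all 6 arrays with culture and genotype (prior degrees of freedom 1.66), and checked on simulated data. Python 3.11.15 did the rest. Motifs were searched in RefSeq promoter windows of GRCm38.p6.

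Genes named were 10 core genes, the 20 highest and 20 lowest differences without predicted genes, clone names and receptor segments, and up to 6 members of each gene list or those at 2-fold or more. The members and lists were chosen with earlier results of these data known. The bright genes, the promoters shown and the genes of the intensity trend were chosen after their values were seen. Alternatives were other scalings, floors, filters, probe set rules, folds, array subsets and variance priors.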

Additional observations from a re-analysis of the deposited data

Results flagged for a closer look

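Some named genes were 2-fold or more apart in opposite directions in the 2 genotypes. The difference between genotypes was not tested, because each has 1 array per culture. Il13 gave 1.03 in wild type, between readings under the low-signal limit, and -3.01 in Ezh2 KO, 4.04 apart. Xcl1, a chemokine gene, gave 1.41 and -1.14, 2.56 apart, and Mal, a membrane protein gene, -2.46 and 1.21, -3.67 apart. Vgll2 gave 2.90 and -2.50 (5.41 apart), Tesmin 3.2 and -1.01 (4.20 apart) and Kif6 -2.60 and 1.27 (-3.87 apart). Over all probe sets the wild type differences were 0.68 for Tesmin, -1.30 for Kif6 and -1.23 for Mal. In all genes tested, 81 were 2-fold or more apart in opposite directions, against 47 the same way toward Th1 and 83 toward Th2. Of the 81, 78 read under 128 on the brighter wild type array and 0 reached 500.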

How the results depend on the processing

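Counts of 2-fold genes depend on how dim genes are treated. The wild type counts for Th1 and Th2 (438 and 335) were 238 and 171 with a floor at the 40th percentile, 1227 and 1201 without a filter, 60 and 28 with a filter at the 60th percentile of gene means, 170 and 138 at 3-fold, 925 and 724 at 1.5-fold, and 51 and 25 with the brighter array at 500 or more, an alternative chosen after seeing the data. The Ezh2 KO counts (313 and 391) became 159 and 251, 1144 and 1129, 6 and 35, 134 and 162, and 759 and 868 under the first 5 of these. The share of Th1 and Th2 genes with the same sign in Ezh2 KO was 44.9% and 45.0% without a filter, 58.3% and 89.3% with the stricter filter and 58.8% and 84.0% at 500 or more, and 54.3% for Th2 at 3-fold. Genes of the Th1 list at 2-fold were 5 with the higher floor and 4 with the stricter filter, and of the Th2 list 2 with the stricter filter. limma passed 3 and 13 genes with an intensity trend on all 6 arrays. With the constant prior it passed 0 and 0 under each other scaling, floor, filter and probe set rule. The trend was not fitted under those settings or on fewer arrays, so how its calls depend on them is not known. Of 265 named genes, 3 reversed with the mean of all probe sets, Gadd45b (-0.34), Nacc2 (0.61) and Prxl2a (0.15), and 1 with quantile normalization, Glb1l (-0.23). The cause was not tested. No paired analysis was possible because the labels carry no replicate numbers to pair samples by; the genotype block in limma matches Th1 with Th2 by genotype only.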
